A study of Homo sapiens with 6 samples.

Results

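The serine/arginine-rich (SR) and heterogeneous nuclear ribonucleoprotein (hnRNP) splicing regulators comprised 34 genes, 14 of the SR family (SRSF1 to SRSF12, TRA2A and TRA2B) and 20 of the hnRNP family, of 19053 genes with a symbol in the table. They were chosen by name and held 150 of the 109018 rows, each of which was a RefSeq protein accession (41 SR rows and 109 hnRNP rows). RNA-seq was done on K562 cells, a human erythroleukemia line driven by Bcr-Abl, in 3 libraries per group. The control cells stably expressed an shRNA against luciferase from the pSIH-H1-GFP lentiviral vector (sh-luc). The knockdown cells stably expressed an shRNA from the same vector against the long noncoding RNA that the labels call lncRNA-IIRX and the study lncRNA-IUR-5 (sh-IUR-5). Both lines carried the vector, the labels name 1 shRNA per group and no drug treatment. The 3 cell groups per arm are called independent, and whether they came from separate infections is not given in the sources used here. The question of the comparison was which transcripts changed upon silencing of this lncRNA. The targeted RNA is noncoding and the table holds protein accessions, so the knockdown itself was not analysed here.

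SR proteins carry an RNA recognition motif and a domain rich in arginine and serine, bind exonic enhancers, and mostly promote the inclusion of the exons they bind. Many hnRNP proteins coat nascent RNA and bind silencers, and often favor exon skipping, so the choice of a splice site depends on the balance of the families. SR proteins are phosphorylated by SRPK and CLK kinases and brought into the nucleus by TNPO3, and several members of both families control their own level through exons that lead their transcripts to nonsense-mediated decay. In Bcr-Abl-positive leukemia, HNRNPA1 and HNRNPK are known as RNA binding proteins that act under the kinase.

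The libraries held 21023739 to 31481109 reads on the rows, of which the members took 0.867 to 1.00%. All 14 K562 markers were detected, among them the globins and the transferrin receptor TFRC. Of 16 lymphoid, monocyte, epithelial and fibroblast markers, MS4A1 and CDH1 were at 0 in every library and 6 reached a mean RPKM of 1. The summed level of that list was 1030 to 1038 RPKM in sh-luc and 974 to 984 RPKM in sh-IUR-5. Nearly all of it came from KRT8, KRT18, KRT19, EPCAM and LYZ (372, 298, 193, 85.5 and 78.4 RPKM in sh-luc 1). HBG1 fell (log2 fold change of -0.55 at the most-read row, edgeR) and TFRC rose (1.11), and the epithelial keratin KRT18 fell (-0.45). Their part in the results on the splicing regulators was not tested, and in these bulk samples a change in the share of cells cannot be told apart from a change in RNA per cell. Library 1 was the lowest of each group for both families. The median log2 deviation of SR genes from their means over the 6 libraries was -0.21 in sh-luc 1 and -0.07 in sh-IUR-5 1. In the other 4 libraries it was -0.001 to 0.11. For hnRNP genes it was -0.06 in sh-luc 1 and -0.16 in sh-IUR-5 1, against -0.006 to 0.13 in the other 4. In each group, the columns of libraries 1, 2 and 3 are numbered 1, 2.1 and 2.2. The labels do not explain this numbering, and libraries 2 and 3 may be from 1 culture, which would leave 2 replicates per group. Differences are therefore also given within library 1 (called series 1 here) and within libraries 2 and 3 (series 2).

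The table often gives a gene several rows, one per protein isoform, and reads from shared coding sequence were spread over them. Among 94 pairs of member rows with the same coding length, the typical difference between the reads of a pair was that of sampling noise, although 0 pairs were identical. The chi-square of a pair, averaged over the libraries, had a median of 0.962 over the pairs, where sampling noise gives about 1. The exception was a pair of HNRNPR rows of 1911 bases (average chi-square of 81.0). The share of reads in a row was therefore not read as exon inclusion, and the reads summed over the rows of a gene were read beside its most-read row. Rows of a gene differ by coding stretches of various lengths. Shown for their place in the results are those of HNRNPD, which fell, of HNRNPDL and SRSF7, whose row shares did not overlap between the groups, and of HNRNPA2B1, whose rows split evenly, read from hg38 with GENCODE v44 coding exons, 5′ to 3′ on the coding strand. Capitals mark the whole coding exon that separates the longer from the shorter row, and lower case marks up to 12 flanking coding bases.
HNRNPA2B1, chr7:26197831-26197866, minus strand, 36 bases, which separates the B1 from the A2 protein: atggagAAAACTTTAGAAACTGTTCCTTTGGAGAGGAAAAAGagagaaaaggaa
HNRNPD, chr4:82371528-82371584, minus strand, 57 bases: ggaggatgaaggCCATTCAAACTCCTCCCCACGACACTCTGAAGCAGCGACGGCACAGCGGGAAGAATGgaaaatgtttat
HNRNPD, chr4:82356537-82356683, minus strand, 147 bases: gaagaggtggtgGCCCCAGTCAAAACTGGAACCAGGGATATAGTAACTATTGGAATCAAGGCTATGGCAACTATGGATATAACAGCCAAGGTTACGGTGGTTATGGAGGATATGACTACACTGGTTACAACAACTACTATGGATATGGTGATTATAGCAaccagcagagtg
HNRNPDL, chr4:82426463-82426633, minus strand, 171 bases: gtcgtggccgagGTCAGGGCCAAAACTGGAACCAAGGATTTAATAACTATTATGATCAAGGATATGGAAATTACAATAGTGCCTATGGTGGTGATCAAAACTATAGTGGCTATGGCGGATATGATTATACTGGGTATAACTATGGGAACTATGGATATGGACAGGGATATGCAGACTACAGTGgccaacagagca
SRSF7, chr2:38746144-38746179, minus strand, 36 bases: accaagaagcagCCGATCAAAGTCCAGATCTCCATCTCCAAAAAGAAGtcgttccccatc
The row with the 36-base exon of HNRNPA2B1 held 50.1% of the reads of its pair in sh-luc and 49.8% in sh-IUR-5 (mean, n = 3 each), an even split.

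The SR genes moved by small amounts in both directions. Of the 14, SRSF12 had 0 reads in every library on both of its rows, which allows up to 3 reads per library, and 13 were tested. At the most-read row 5 rose (SRSF1, SRSF2, SRSF6, SRSF8 and TRA2B), 2 fell (SRSF9 and SRSF11) and 6 did not pass the test (adjusted p threshold of 0.05, edgeR quasi-likelihood test with Benjamini-Hochberg adjustment over all rows tested). With summed reads the counts were again 5 and 2, with SRSF10 in place of TRA2B. Across all genes at the most-read row, 22.4% rose and 23.5% fell, and with summed reads 25.9% rose and 24.3% fell. The median log2 fold change of sh-IUR-5 over sh-luc was 0.07 for the SR genes at the most-read row and 0.06 with summed reads, against -0.007 and 0.001 for all genes.

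Among the hnRNP genes, 4 rose (HNRNPF, HNRNPH2, HNRNPR and HNRNPUL1), 6 fell (HNRNPA1, HNRNPD, HNRNPK, HNRNPLL, HNRNPM and HNRNPUL2) and 10 did not pass, by either reading. The medians were -0.09 at the most-read row and -0.10 with summed reads. Members past the threshold were thus 17 of 33 by each reading, 16 of them by both, beside the background shares above. None of the 33 reached a 2-fold difference. The largest change was that of SRSF1, with a log2 fold change of 0.46 by the summed reads.

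The falls depended on the scaling. The main values were scaled by TMM, which sets the typical row at no change (median log2 fold change of 0.005 over 38204 rows). Scaled to total reads, as RPKM is, the median row was at 0.20, all 9 rises at the most-read row stayed past the threshold and 0 of the 8 falls did. Among rows with a mean RPKM of at least 5, the hnRNP falls went from 6 to 1 (HNRNPLL) at the most-read row and from 6 to 0 with summed reads. Over all rows, 14256 of 38204 passed in either direction in the main fit and 16484 with total reads. At a mean RPKM of at least 5 it was 7356 of 16092. Rises and falls over all rows were not counted apart for these settings. The loss of falls is therefore not shown to be particular to the members. Each fall described here is thus a fall relative to the typical row. Removal of GC and length trends, chosen after seeing the data, gave more hnRNP falls at the most-read row. Those counts are in the last section.

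Single libraries also mattered. Of the 17 calls at the most-read row, 5 (SRSF1, SRSF8, SRSF9, HNRNPLL and HNRNPUL1) held in every fit that left out 1 library. Without sh-luc 2 or without sh-luc 3, only HNRNPLL remained of the 6 hnRNP falls. Without sh-luc 1 the SR rises went from 5 to 2 and the hnRNP rises from 4 to 2, and SRSF7 passed as a fall. Without sh-IUR-5 1 the hnRNP falls went from 6 to 3. Without sh-IUR-5 2 the SR rises went from 5 to 2 and the hnRNP rises from 4 to 1 (HNRNPUL1), and without sh-IUR-5 3 the rises went to 2 in each family. With libraries 2 and 3 of each group summed as 1 sample, 2 SR rises, 1 SR fall, 1 hnRNP rise and 1 hnRNP fall passed. Over all 38204 rows, 14256 passed in the main fit, 11215 to 13582 without 1 library and 10205 with libraries 2 and 3 summed. At the most-read row, 3 calls (SRSF1, SRSF8 and HNRNPUL1) held under every alternative tried.

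**Figure D1:**
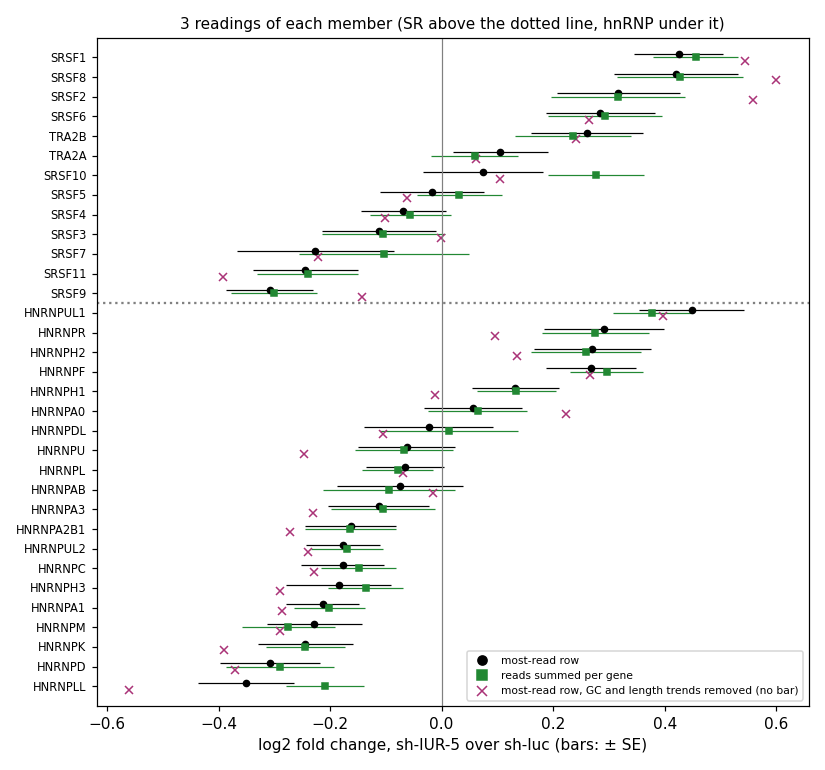
Log2 fold change of sh-IUR-5 over sh-luc (x axis) for the 33 tested members (y axis), at the most-read row (circles, ± SE), with summed reads (squares, ± SE) and at the most-read row after removal of GC and length trends (crosses). SRSF10 and HNRNPLL show the largest gaps between row and sum, and the removal of trends moved SRSF9 toward 0 and HNRNPLL away from it.

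Values without a unit are reads summed per gene as CPM (library-scaled counts) after TMM scaling, which compare a gene between libraries. SRSF1, a shuttling SR protein with oncogenic activity on chromosome 17 (57989038 to 58007246), had 64.7, 70.9 and 75.6 in sh-luc 1 to 3 and 94.5, 96.0 and 99.2 in sh-IUR-5 1 to 3. The groups did not overlap. The rise was 0.46 ± 0.08 on the log2 scale (SE, edgeR adjusted p = 0.000328), or 1.37-fold, and the difference was 0.55 within series 1 and 0.41 within series 2.

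SRSF8, a retrogene relative of SRSF2 with no intron in its coding region, lies on chromosome 11 (95066877 to 95071225). It is 79313 bases from the annotated gene LNCRNA-IUR, which spans 95150539 to 95234391 on the plus strand of the same chromosome. It had the lowest level of the tested SR genes, 15.2 RPKM. Its values were 11.6, 10.7 and 11.2 in sh-luc and 17.5, 13.4 and 14.0 in sh-IUR-5. Every knockdown library was above the controls, and sh-IUR-5 1 stood highest. Its log2 fold change was 0.43 ± 0.11 (SE, edgeR adjusted p = 0.00776), 0.59 in series 1 and 0.33 in series 2. Reads that fit both SRSF8 and SRSF2 could have been assigned to either.

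SRSF2, which acts in the nucleus and is mutated in myeloid neoplasms, had 50.1, 69.4 and 76.0 in sh-luc and 74.2, 86.2 and 83.0 in sh-IUR-5. The groups overlapped by sh-luc 3 and sh-IUR-5 1, and sh-luc 1 was far below the other controls. This gave a log2 fold change of 0.32 ± 0.12 (SE, edgeR adjusted p = 0.0484), with 0.57 in series 1 and 0.22 in series 2. SRSF6 had 83.6, 102 and 93.9 in sh-luc and 95.9, 121 and 126 in sh-IUR-5. Here sh-IUR-5 1 lay within the control range. SRSF6 had a log2 fold change of 0.29 ± 0.10 (SE, edgeR adjusted p = 0.0326). After removal of GC and length trends SRSF6 was at 0.26 at the most-read row, against 0.28 before, and narrowly missed the threshold.

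TRA2B, a sequence-specific activator that contains RS domains at both ends, had 75.2, 97.1 and 104 in sh-luc and 99.5, 114 and 111 in sh-IUR-5. The groups overlapped through sh-luc 3. It passed at the most-read row (log2 fold change of 0.26, edgeR adjusted p = 0.0472) and did not with summed reads (0.24 ± 0.10 SE, edgeR adjusted p = 0.0841), nor after removal of GC and length trends (0.24 at the most-read row). Its relative TRA2A did not pass, with means of 42.1 ± 1.19 and 43.9 ± 2.17 (SD, n = 3).

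SRSF10, which represses splicing when dephosphorylated, showed the opposite order of readings. Its summed reads were 58.0, 67.2 and 64.9 in sh-luc and 69.9, 76.5 and 83.8 in sh-IUR-5. The groups were separate, with sh-luc 2 just under sh-IUR-5 1. The log2 fold change of the sum was 0.28 ± 0.09 (SE, edgeR adjusted p = 0.0193), against 0.07 (edgeR adjusted p = 0.62) at the most-read row of 552 bases. All 9 of its rows had values above 0, from 0.07 to 0.49, and 4 passed as rises, those of 504, 522, 519 and 789 bases.

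SRSF9 was the clearest fall of the SR genes. Its single row held 197, 221 and 223 in sh-luc and 161, 186 and 173 in sh-IUR-5. Every knockdown library was below every control library. On the log2 scale the difference was -0.30 ± 0.08 (SE, edgeR adjusted p = 0.00668), with -0.29 in series 1 and -0.31 in series 2. After removal of GC and length trends it was -0.14 at the most-read row and did not pass.

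SRSF11, which interacts with the splice site factor U2AF, had 30.9, 36.4 and 34.0 in sh-luc and 26.4, 30.1 and 29.2 in sh-IUR-5. The groups were separate by a small margin, between sh-luc 1 and sh-IUR-5 2. This gave a log2 fold change of -0.24 ± 0.09 (SE, edgeR adjusted p = 0.0447), and the call held in only 1 of the 6 fits without 1 library.

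SRSF3, the SR gene with the highest level (538 RPKM), had 235, 321 and 295 in sh-luc and 226, 289 and 276 in sh-IUR-5, and did not pass (edgeR adjusted p = 0.473). Library 1 was the lowest of each group. SRSF5 (247 RPKM) had 182, 194 and 194 in sh-luc and 176, 200 and 207 in sh-IUR-5, with groups that overlapped on both sides. SRSF4 and SRSF7 did not pass either, with log2 fold changes of -0.06 and -0.10. SRSF7 had the widest spread of the family relative to its level, from 84.7 to 134 among the sh-luc libraries alone. A value that did not pass is not shown to be unchanged. On simulated counts, edgeR recovered 39 of 100 rows changed by 0.5 on the log2 scale and 91 of 100 changed by 1. There, 100 of 38204 rows were changed at each size, whereas 14256 rows passed in the data. The adjustment was thus stricter in the simulation, and the changed rows were drawn from all rows tested. These rates are therefore not those of the members.

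**Figure D2:**
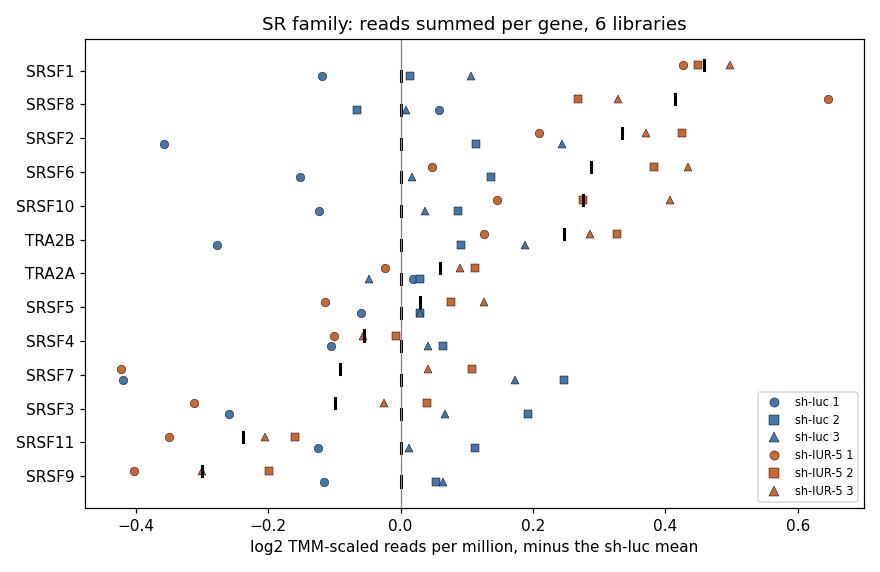
Summed reads as CPM after TMM scaling, as log2 minus the sh-luc mean (x axis), for the 13 tested SR genes (y axis). Each point is a library (circle 1, square 2, triangle 3), blue for sh-luc and orange for sh-IUR-5, and black bars are group means. SRSF1 and SRSF8 lie apart to the right and SRSF9 to the left, and library 1 of both groups is low in SRSF3 and SRSF7.

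Levels compared between genes, as RPKM summed over rows, were highest for HNRNPA1, the splicing repressor that binds UAG motifs, at 2034 RPKM over the 6 libraries. HNRNPC (934 RPKM), which binds uridine tracts, HNRNPD (709 RPKM), which binds AU-rich elements, and HNRNPA2B1 (706 RPKM) followed. HNRNPD and HNRNPA2B1 did not differ beyond their spread. The hnRNP genes with higher levels leaned to falls: of the 10 with levels of 195 RPKM and more, 0 rose and 4 fell with summed reads (median log2 fold change of -0.16), whereas of the 10 with lower levels 4 rose and 2 fell (median of 0.10). In the SR family 1 rose and 1 fell among the 6 genes with higher levels, and 4 rose and 1 fell among the 7 others. This is a description of the members, with no test, and rests on the TMM scaling. Over all genes, 25.9% rose and 24.3% fell with summed reads. The shares over all genes of similar level were not computed, so the lean is not shown to be particular to these families. Among rows with a mean RPKM of at least 5, 0 hnRNP falls passed with summed reads.

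**Figure D3:**
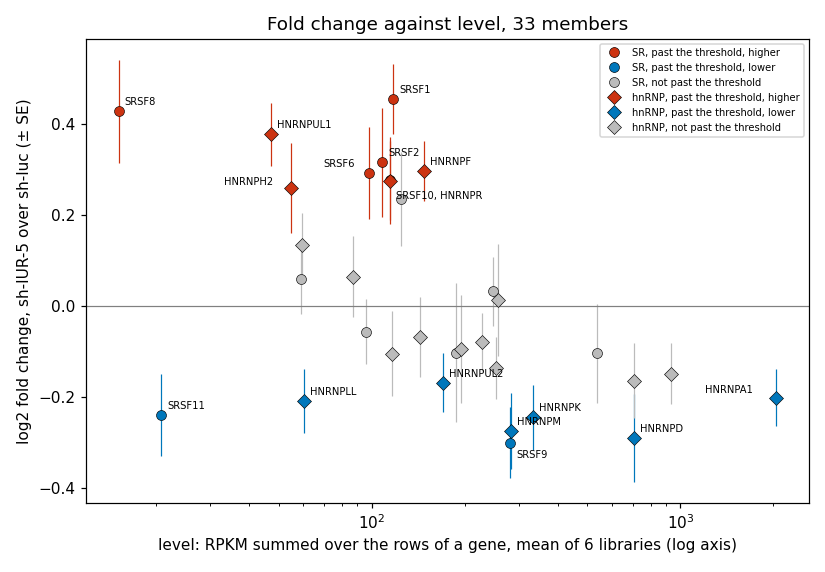
Log2 fold change of summed reads (y axis, ± SE) against level (x axis, log scale, RPKM summed over rows, mean of 6 libraries) for the 33 tested members, circles for SR and diamonds for hnRNP, colored by the edgeR call. HNRNPA1, HNRNPD, HNRNPK and HNRNPM are the falls at high level, and all 4 hnRNP rises lie at 147 RPKM (HNRNPF) or lower.

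HNRNPA1, on chromosome 12 (54280726 to 54287087), had 2243, 2313 and 2285 CPM in sh-luc and 1872, 2040 and 2037 in sh-IUR-5. The groups were separate and sh-IUR-5 1 was lowest. The log2 fold change was -0.20 ± 0.06 (SE, edgeR adjusted p = 0.0199), -0.26 in series 1 and -0.17 in series 2. Scaled to total reads it was -0.02, and in RPKM the means were 2046 ± 31.7 and 2022 ± 49.1 (SD, n = 3). Its near copy HNRNPA1L2, which may share reads with it, fell as well (log2 fold change of -0.36, edgeR adjusted p = 0.00561 at its most-read row).

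HNRNPD had 713, 824 and 796 in sh-luc and 526, 688 and 694 in sh-IUR-5. The groups were separate, with sh-IUR-5 3 just under sh-luc 1, and sh-IUR-5 1 was far below the rest. This gave a log2 fold change of -0.29 ± 0.10 (SE, edgeR adjusted p = 0.0269), with -0.44 in series 1 and -0.23 in series 2. HNRNPDL, its paralog and neighbor on chromosome 4, had 261, 356 and 329 in sh-luc and 253, 348 and 353 in sh-IUR-5, and did not pass (log2 fold change of 0.01). The libraries of HNRNPDL overlapped throughout. Whether the paralogs differed in their response was not tested.

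HNRNPK, which binds C-rich tracts, had 467, 537 and 520 in sh-luc and 413, 432 and 442 in sh-IUR-5. All sh-IUR-5 libraries lay below the controls. The log2 fold change was -0.24 ± 0.07 (SE, edgeR adjusted p = 0.0136), -0.18 in series 1 and -0.28 in series 2. HNRNPM had 564, 652 and 658 in sh-luc and 461, 560 and 528 in sh-IUR-5, with sh-IUR-5 2 just under sh-luc 1. Its log2 fold change was -0.27 ± 0.08 (SE, edgeR adjusted p = 0.0172). HNRNPUL2, with 1 row, had 410, 414 and 420 against 354, 377 and 377. The spread within each group was narrow and the groups were separate, and the log2 fold change was -0.17 ± 0.06 (SE, edgeR adjusted p = 0.0485). Its call was lost in each fit without 1 library, and its sign turned with scaling to total reads (0.02).

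HNRNPLL, known for its role in the exon choice of CD45 in lymphocytes, had 117, 118 and 109 in sh-luc and 97.2, 101 and 99.3 in sh-IUR-5. The groups were separate. The sum fell by a log2 fold change of -0.21 ± 0.07 (SE, edgeR adjusted p = 0.027), and the most-read row by -0.35 (edgeR adjusted p = 0.00366). Its 6 rows split. The rows of 1788, 1773 and 1716 bases held 495 to 635 reads in the sh-luc libraries and fell (log2 fold changes of -0.35, -0.38 and -0.48). The rows of 1629, 1614 and 1713 bases held 171 to 246 reads in the same libraries and did not pass, with log2 fold changes of 0.09, 0.22 and 0.25. The lengths of the rows are close, so the first 3 rows drew more reads per base than the others in every library. In RPKM, the sum was 60.7 ± 2.20 in sh-luc and 60.0 ± 0.581 in sh-IUR-5 (SD, n = 3).

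**Figure D4:**
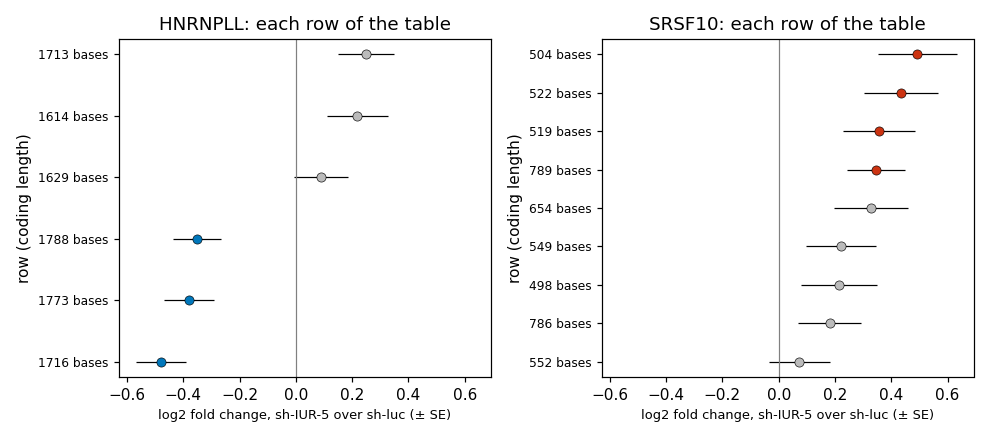
Log2 fold change of sh-IUR-5 over sh-luc (x axis, ± SE, TMM scaling) for each row of HNRNPLL and SRSF10 (y axis, rows by coding length), with rows past the edgeR threshold in red (higher) or blue (lower) and others in grey. The HNRNPLL rows fall into 3 below 0 and 3 above it, whereas the 9 SRSF10 rows all lie above 0.

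HNRNPUL1, an hnRNP U-like protein that takes part in DNA end resection and mRNA export, showed the largest rise of its family. It lies on chromosome 19 (41262557 to 41307787). It had 96.9, 93.8 and 101 in sh-luc and 130, 123 and 126 in sh-IUR-5. The groups were far apart for their spread. The rise was 0.38 ± 0.07 on the log2 scale (SE, edgeR adjusted p = 0.000641), or 1.30-fold, with 0.42 in series 1 and 0.35 in series 2.

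HNRNPF, which binds G tracts, had 173, 169 and 163 in sh-luc and 205, 205 and 208 in sh-IUR-5. These were the tightest sh-IUR-5 values among the rises, and the groups did not overlap. The rise was 0.30 ± 0.07 on the log2 scale (SE, edgeR adjusted p = 0.00255). HNRNPH2, its X-linked relative, had 58.0, 76.6 and 72.0 in sh-luc and 75.5, 84.0 and 87.7 in sh-IUR-5. There sh-IUR-5 1 lay below sh-luc 2. Its log2 fold change was 0.26 ± 0.10 (SE, edgeR adjusted p = 0.0477). Of the same subfamily, HNRNPH1 had 75.6, 82.0 and 77.9 in sh-luc and 84.5, 85.5 and 88.4 in sh-IUR-5 and did not pass (0.13, edgeR adjusted p = 0.147), although its groups were separate. HNRNPH3 had 234, 233 and 228 in sh-luc and 199, 217 and 216 in sh-IUR-5. It had a log2 fold change of -0.14 and did not pass, although its groups were separate too. Among its 21 rows, those with log2 fold changes of -0.47 and -0.31 passed as falls and the others did not pass.

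HNRNPR, an RNA binding protein related to SYNCRIP, had 154, 190 and 188 in sh-luc and 188, 225 and 231 in sh-IUR-5. The lowest sh-IUR-5 library lay within the control range. The rise was 0.28 ± 0.10 on the log2 scale (SE, edgeR adjusted p = 0.0316). The calls of HNRNPR and HNRNPH2 were lost upon removal of GC and length trends, with 0.10 and 0.14 at the most-read row.

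HNRNPC had 896, 949 and 881 in sh-luc and 771, 838 and 849 in sh-IUR-5. The groups were separate, and the log2 fold change of -0.15 ± 0.07 (SE) did not pass (edgeR adjusted p = 0.0889). HNRNPA2B1 had 731, 860 and 813 in sh-luc and 639, 752 and 755 in sh-IUR-5, which overlapped, and did not pass (-0.16 ± 0.08 SE, edgeR adjusted p = 0.123). With a term for series 1 and 2 in the fit, HNRNPC, HNRNPA2B1 and SRSF7 passed as falls at the most-read row. The other hnRNP genes that did not pass, HNRNPA0, HNRNPA3, HNRNPAB, HNRNPL and HNRNPU, had log2 fold changes from -0.11 (HNRNPA3) to 0.06 (HNRNPA0). Of these, only HNRNPL had separate groups, with 379, 375 and 383 in sh-luc and 349, 369 and 359 in sh-IUR-5. HNRNPU, a scaffold attachment factor, was at 371 ± 36.1 and 354 ± 35.3 (SD, n = 3). The difference had the same sign in series 1 and series 2 for 18 of the 20 hnRNP genes and for 10 of the 13 SR genes. The share over all genes was not computed, so this agreement is not shown to be particular to these families.

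**Figure D5:**
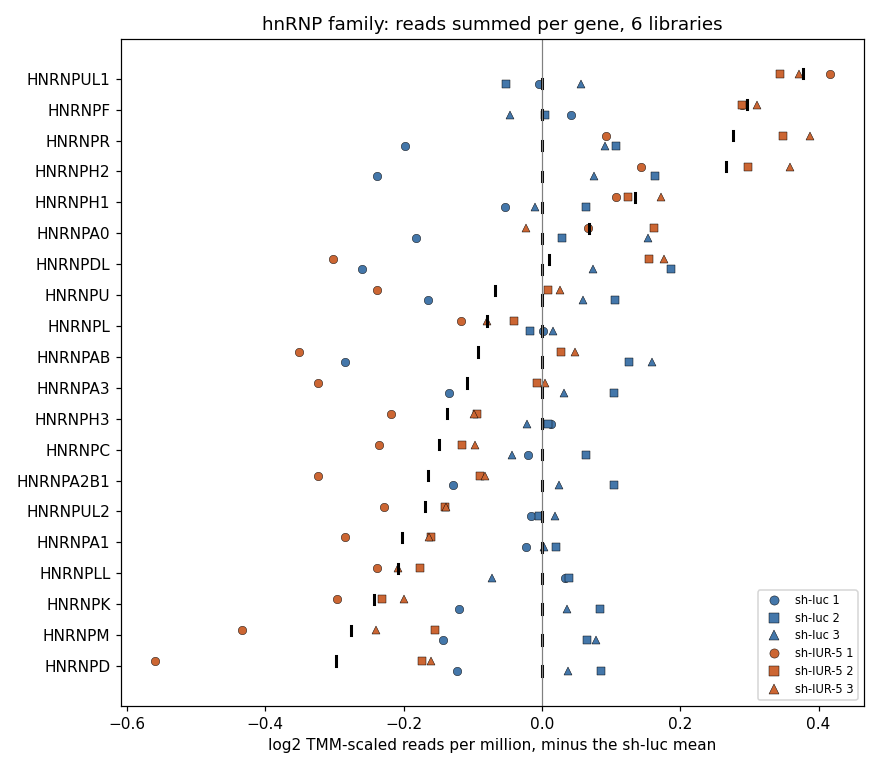
Summed reads as CPM after TMM scaling, as log2 minus the sh-luc mean (x axis), for the 20 hnRNP genes (y axis), with points and colors by library and group and black bars for group means. HNRNPUL1 and HNRNPF lie apart to the right, and HNRNPD, HNRNPM and HNRNPK to the left with sh-IUR-5 1 as the lowest point.

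The share of a gene's reads in its most-read row was compared for the 26 members with several rows and at least 100 reads per library. It did not overlap between the groups for 5 of 26 (SRSF7, SRSF10, HNRNPDL and HNRNPLL lower in sh-IUR-5, TRA2B higher), beside 21.0% of 6119 genes. The share of the row with the 36-base SRSF7 exon shown above went from 35.6, 36.5 and 35.5% in sh-luc to 34.6, 33.8 and 31.5% in sh-IUR-5. For the HNRNPDL row with the 171-base exon it went from 67.3, 67.2 and 69.1% to 66.5, 67.1 and 66.2%. The lowest control share of HNRNPDL was barely above the highest knockdown share. TRA2B went from 79.4, 79.7 and 80.3% to 83.1, 80.6 and 81.6%, and each had p = 0.1 in an exact two-sided permutation test, the smallest that 3 against 3 libraries allow.

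Of 11 genes for SR protein kinases and import receptors, 9 were tested. At the most-read row 3 rose and 0 fell, beside 22.4% and 23.5% of all genes. The rises were SRPK1 (log2 fold change of 0.28), TNPO3 (0.40), which imports SR proteins, and TNPO1 (0.72), which imports HNRNPA1. The kinases CLK1, CLK2 and CLK4 did not pass, with log2 fold changes of -0.08, -0.006 and 0.07. CLK3 fell by the summed reads only (-0.44, edgeR adjusted p = 0.0132). Of 24 other RNA binding splicing regulators tested, 5 rose and 4 fell, beside the same shares of all genes. The largest rises were QKI (1.06), PTBP1 (0.60), the polypyrimidine tract binding repressor, and KHDRBS1 (0.40), and the largest falls were RBM25 (-0.39), PTBP3 (-0.38) and RALY (-0.31), of which PTBP3 did not pass with summed reads (0.01).

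The core spliceosome list of 35 genes had 7 rises and 17 falls, beside 22.4% and 23.5% of all genes, with a median of -0.20. The largest falls were small Sm proteins, SNRPD2 (-0.65), SNRPF (-0.59) and SNRPE (-0.51), and the largest rises DHX15 (0.44), PRPF4 (0.41) and PRPF8 (0.35). Of 15 genes for nonsense-mediated decay and the exon junction complex, 4 rose and 6 fell, beside the same shares of all genes. The largest rises were UPF1 (0.48), SMG1 (0.41) and CASC3 (0.40), and the largest falls UPF3B (-0.77), UPF3A (-0.61) and MAGOH (-0.45). Near copies of members had 0 rises and 2 falls among 3 tested, beside those shares. Of the reference genes, ACTB had a log2 fold change of 0.02 and GAPDH of -0.17, and neither passed at the most-read row, though GAPDH passed with summed reads (edgeR adjusted p = 0.0445). Scaled to total reads, the counts over these other lists together went from 19 rises and 29 falls to 34 and 11.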

How the data were processed

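RNA was extracted from 3 independent groups of K562 cells per arm, and groups and replicates were taken from the labels. The authors deposited raw counts of reads and RPKM per RefSeq protein accession, with 1 column per library. Per the labels, reads were processed with CASAVA 1.8, Trimmomatic 0.32, Bowtie2 2.1.0 and SAMtools 0.1.19 on hg38. Neither the release of RefSeq nor how reads common to several isoforms were assigned is given in the sources used here. The deposited RPKM equal reads over row length and the summed reads of the library, and 99.8% of the lengths are multiples of 3 (coding length). Another file holds the authors' own fold changes and p-values over pooled libraries and was not used. 64.7% of the rows received a symbol from RefSeq on GRCh38.p14.

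Member genes and lists were chosen with earlier results of these data known. Rows with a mean RPKM of at least 1 (38204) were fitted with edgeR 4.0.16 (quasi-likelihood test, TMM, Benjamini-Hochberg, R 4.3.3). Summed reads per gene were fitted likewise. The biological coefficient of variation was 8.05%. Per-library values are printed for members past the threshold with the 6 largest changes per family, the 3 with the highest RPKM and those whose readings differ, and for some others chosen after their values were seen. Other lists give up to 3 rises and 3 falls. P-values measure the spread between 3 libraries per group, which may be partly technical since libraries 2 and 3 may share a culture, and counts of 0 cover counting error only. The fit was tested on simulated data, with 10 false calls. Alternatives were DESeq2 1.42.0, RLE factors, total reads, limma 3.58.1 on log2(RPKM + 0.1, 1 or 0.01), other filters, 1 library left out, a replicate block, a series term, libraries 2 and 3 summed, a threshold of 0.01 and, chosen after seeing the data, removal of GC and length trends. Coding GC was known for 98.8% of the genes tested. Sequences were read from hg38 by GENCODE v44 exons. Stretches that separate the rows of other members are not reported here.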

Additional observations from a re-analysis of the deposited data

How the results depend on the processing

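Counts are given as SR rises, SR falls, hnRNP rises and hnRNP falls, against 5, 2, 4 and 6 by either reading. At the most-read row they were 4, 1, 2 and 5 with DESeq2, 4, 2, 3 and 6 with RLE factors, 7, 0, 6 and 0 with scaling to total reads and with limma on log2(RPKM + 0.1), log2(RPKM + 1) and log2(RPKM + 0.01), 4, 3, 1 and 8 with every accession that had a read, 6, 1, 5 and 1 with a mean RPKM of at least 5, 2, 1, 1 and 1 with libraries 2 and 3 summed, 2, 1, 1 and 1 at an adjusted p under 0.01, 5, 1, 4 and 4 with 1 row per gene, and 3, 1, 2 and 11 after removal of GC and length trends. With 1 library left out they ranged from 2 to 5, 1 to 3, 1 to 4 and 1 to 5. Over all 38204 rows, 14256 passed in the main fit, 11171 with DESeq2, 14216 with RLE factors and 16484 with total reads. The limma fits gave 15463 to 15561, libraries 2 and 3 summed 10205 and 1 library left out 11215 to 13582. It was 17943 of 83980 for every accession with a read, and 7356 of 16092 at a mean RPKM of at least 5. With 1 row per gene 3961 of 8766 passed, and 3648 after removal of trends. These totals join rises and falls. With summed reads the member counts were 5, 1, 3 and 5 with DESeq2, 8, 0, 6 and 0 with total reads, 6, 1, 5 and 0 with a mean RPKM of at least 5, 2, 0, 2 and 0 with libraries 2 and 3 summed, and 2 to 6, 1 to 2, 2 to 4 and 0 to 5 with 1 library left out. HNRNPUL2 turned sign, to 0.016 at the most-read row (total reads and all 3 limma fits) and to 0.016 for the sum with total reads. The other lists went from 19 rises and 29 falls to 34 and 11 with total reads, 29 and 10 with limma, 24 and 17 at a mean RPKM of at least 5, 15 and 19 with libraries 2 and 3 summed and 9 and 29 after removal of GC and length trends. The count of row shares without overlap went from 5 to between 7 and 10 with 1 library left out, under which the share over all genes went from 21.0% to between 28.6 and 32.6%. Deviations from group means correlated at 0.31, 0.088 and -0.013 between same-numbered libraries of sh-luc and sh-IUR-5. Between library 1 of a group and libraries 2 and 3 of the other, correlations were -0.27 to -0.07. Within series 2 they were -0.013 to 0.23. The main fit had no term for this. The replicate block gave 5, 3, 4 and 8, with 16831 rows past the threshold in place of 14256. A term for series 1 and 2 gave 5, 3, 4 and 8 too, with 17924 rows past the threshold. In both fits the added falls were SRSF7, HNRNPA2B1 and HNRNPC, while trend removal with the replicate block gave 5, 3, 3 and 11. Members past the threshold in neither of a pair of fits changed sign 97 times. The cause of these moves was not tested. In the simulation, changes of 0.5 on the log2 scale were often missed, but that rate does not carry over to the members.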
